A study of Mus musculus with 12 samples.

Results

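Pericentral Wnt target genes are genes that canonical Wnt signalling keeps active in the hepatocytes around the central vein of the liver lobule. The 9 genes examined here, Axin2, Nkd1, Rnf43, Znrf3, Lgr5, Tbx3, Lect2, Slc1a2 and Rhbg, were taken by gene symbol, and all 9 were among the 21705 genes in the deposited table. The study asked how inhibition of the microRNA family miR-29 changes messenger RNA in mouse liver. Livers of female C57BL/6J mice aged 10 to 12 weeks were sequenced, 6 from mice that received saline and 6 from mice that received LNA29, a mixture of LNA29a against miR-29a and LNA29bc against miR-29b and miR-29c at 20 mg/kg each. A locked nucleic acid (LNA) is a short modified oligonucleotide that binds a microRNA and blocks it. Both groups were injected through the tail vein, and livers were collected on day 7 after an 18 h fast. The control mice of this comparison received saline and not a control LNA, so that an effect of any LNA and an effect of miR-29 inhibition cannot be told apart in these livers.

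In canonical Wnt signalling, Wnt ligands bind Frizzled and Lrp receptors, β-catenin escapes the destruction complex, and β-catenin with a TCF/LEF factor activates transcription at its target genes. In the liver, endothelial cells of the central vein supply Wnt ligands and R-spondins, and the hepatocytes next to the vein answer with glutamine synthesis, ammonium uptake and cytochrome P450 expression. Hepatocytes near the portal vein instead carry most urea synthesis and gluconeogenesis. Several Wnt targets are themselves brakes on the pathway, among them Axin2, Nkd1, Rnf43 and Znrf3.

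The 3 mature microRNAs that LNA29 was designed against are shown because their shared seed defines the sites looked for in the Wnt targets. They are printed 5′ to 3′ from RefSeq (GRCm38.p6) with the seed, bases 2 to 8, in capitals.
miR-29a-3p: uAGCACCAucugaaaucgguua
miR-29b-3p: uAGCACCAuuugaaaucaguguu
miR-29c-3p: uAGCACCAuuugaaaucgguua
The seed was the same in all 3, and its complement in a messenger RNA reads TGGTGCT. miR-29a-3p lies at chr6:31062673-31062694 on the minus strand and miR-29c-3p at chr1:195037600-195037621 on the plus strand. miR-29b-3p has a copy beside each of them, at chr6:31063025-31063047 and chr1:195037091-195037113.

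For every gene the longest 3′ UTR annotated in GENCODE M21 (GRCm38) was searched for TGGTGCT. Of the 9 Wnt targets, 2 held a match, against 2754 of 21024 genes with a 3′ UTR (13.1%). In Rnf43 the match lay at chr11:87734777-87734783 on the plus strand, in exon 9, at base 578 of a 3′ UTR of 1340 bases. In Slc1a2 it lay at chr2:102788472-102788478 on the plus strand, in exon 11, at base 6938 of a 3′ UTR of 9250 bases. The sites are printed below with the match in capitals, and neither was followed by an A, the base that extends the strongest class of seed site.
Rnf43: ttctccctggcTGGTGCTcagggaggagcg
Slc1a2: gcatcaaggaaTGGTGCTgactgctgtttc

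Promoter windows from RefSeq (GRCm38.p6), 250 bases before to 50 bases after an annotated start, were matched by symbol for Axin2, Nkd1, Rnf43 (2 windows), Lect2 and Slc1a2, and were not used here for Lgr5, Znrf3, Tbx3 and Rhbg. They were searched on both strands for the TCF/LEF letters CTTTGAT and CTTTGAA. A match was present in 2 of the 6 windows, those of Lect2 and Slc1a2, against 2842 of 32851 windows of all genes (8.65%). The Lect2 window, chr13:56548489-56548788 on the minus strand, held ATCAAAG, the other-strand form of CTTTGAT, starting 32 bases before the start. The Slc1a2 window, chr2:102706188-102706487 on the plus strand, held the same letters starting 207 bases before its start. This window belongs to a start inside the annotated gene, which spans chr2:102658659-102790784. Both windows are printed with the match in capitals, as a description of letters and not of binding.
Lect2: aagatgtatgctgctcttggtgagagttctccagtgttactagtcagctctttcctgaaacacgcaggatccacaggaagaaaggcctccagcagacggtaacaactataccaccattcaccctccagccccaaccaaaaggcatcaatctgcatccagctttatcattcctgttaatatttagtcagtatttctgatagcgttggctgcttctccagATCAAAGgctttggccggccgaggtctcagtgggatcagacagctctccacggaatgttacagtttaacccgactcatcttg
Slc1a2: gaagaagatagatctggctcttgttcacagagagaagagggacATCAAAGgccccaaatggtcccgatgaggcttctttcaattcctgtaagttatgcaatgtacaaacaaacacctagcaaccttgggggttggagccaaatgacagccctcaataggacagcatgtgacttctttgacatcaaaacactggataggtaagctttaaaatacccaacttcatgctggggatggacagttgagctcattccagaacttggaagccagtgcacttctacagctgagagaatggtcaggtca

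The deposited values are reads per gene, scaled in each liver to an upper quartile of 1000 over genes with reads, and a gene without reads is listed at 1. The spacing of low values gave the worth of 1 read, between 9.80 and 24.4, so that a value of 100 stood for 4 to 10 reads. Estimated reads on genes were from 8217212 to 19062479 with saline and from 7696095 to 15079236 with LNA29. The hepatocyte markers Alb, Ttr, Apoa1, Hnf4a and Tat were all abundant in every liver, with lowest values of 29304000, 815470, 1483850, 18921 and 39859. For none of these markers was the limma adjusted p under 0.05.

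A pair of livers stood apart from the others of their groups. Albumin made up 35.7% of reads in the saline liver with replicate number 49, against 43.6% to 46.9% in the other saline livers, and its values deviated upward with transcript length by 0.40 on the log2 scale per doubling, more than in any other liver. In LNA29 replicate 48, Glul, the glutamine synthetase gene that marks the innermost pericentral hepatocytes, had a value of 9906, while the other LNA29 livers lay between 24659 and 36671. Among 14 pericentral genes outside the 9, Glul included, that liver was the lowest of all 12 for 10. The length trend of LNA29 replicate 48 was -0.22 per doubling, and only saline replicate 47 had a lower one (-0.25). The part of this trend in the low values of LNA29 replicate 48 was not tested. Results are therefore given with all livers and without saline replicate 49 and LNA29 replicate 48, a comparison chosen after the data were seen.

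The comparison used log2(value + 1) and limma, for 12486 genes whose mean reached 10, all 9 Wnt targets among them. Where an exact p is given, it comes from a two-sided permutation of the group labels, with 924 possible divisions for 6 and 6 livers. In limma, 0 of 9 targets had an adjusted p under 0.05, where 0.16% of all tested genes did. An unadjusted limma p under 0.05 was found for 2 of 9, Lect2 and Rnf43, where 7.91% of all tested genes had one. Both had lower values in LNA29 livers, and 5.97% of tested genes had an unadjusted limma p under 0.05 in that direction. An exact permutation p under 0.05 was found for 1 of 9, Lect2, where 8.5% of tested genes had one. In none of the 9 did all LNA29 livers lie above or below all saline livers, against 0.985% of tested genes. In bulk liver, fewer pericentral hepatocytes and less RNA per pericentral hepatocyte cannot be told apart.

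**Figure D1:**
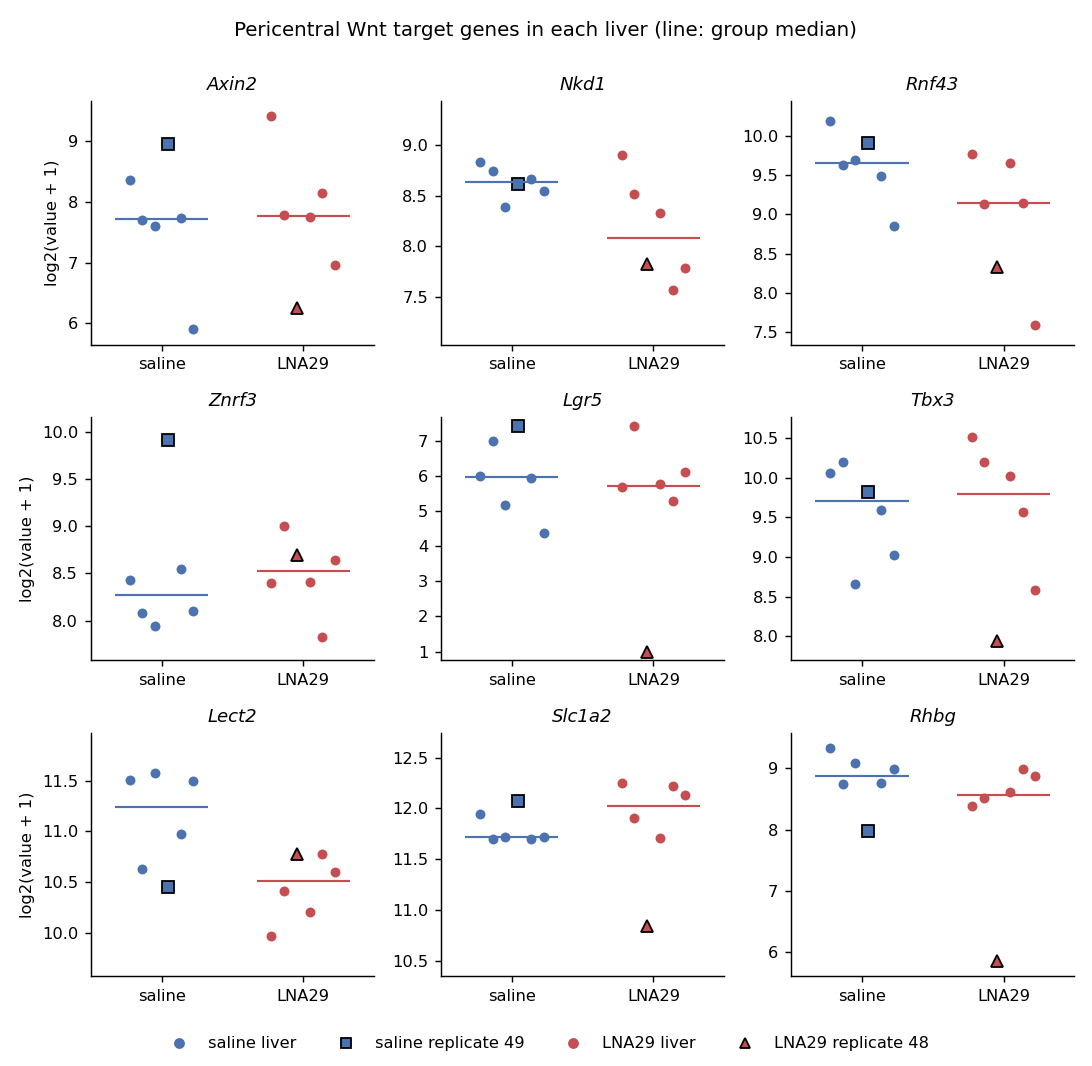
Value of each pericentral Wnt target gene in each liver on the log2(value + 1) scale, with saline livers in blue and LNA29 livers in red, a line at the group median, and separate axes for each gene. The black-edged square is saline replicate 49 and the black-edged triangle is LNA29 replicate 48; the groups overlap for all 9 genes.

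The plot of each gene by liver shows overlapping groups for every target. Log2 fold changes (LNA29 minus saline) were negative for 7 of 9 targets, with a median of -0.48, while the median of all tested genes was -0.09 and 61.4% of them were negative. With each liver shifted to a common median, 6 of 9 were negative, Znrf3 being the target that changed sign. Without saline replicate 49 and LNA29 replicate 48 the median of the 9 targets was 0.23 and 4 of 9 were negative, against a median of -0.06 for all tested genes. The direction of the list as a whole thus differed with and without those livers, and that of Lect2, Nkd1, Rnf43 and Rhbg did not. LNA29 replicate 48 was picked for low values of other pericentral genes, so that this shift is not a separate observation.

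**Figure D2:**
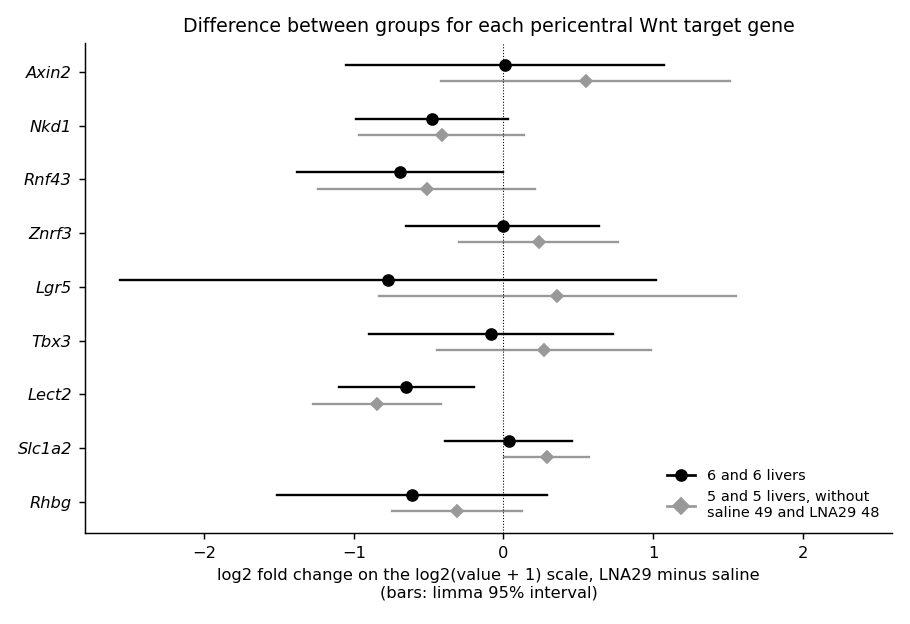
Log2 fold change of each pericentral Wnt target gene, LNA29 minus saline, with its limma 95% interval, for all 12 livers (black circles) and for 10 livers without saline replicate 49 and LNA29 replicate 48 (grey diamonds). The interval of Lect2 lies below 0 in both, and those of Axin2, Nkd1, Znrf3, Lgr5, Tbx3 and Rhbg include 0 in both.

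Axin2 encodes a scaffold of the β-catenin destruction complex and is widely used as a readout of canonical Wnt activity (Entrez gene 12006, chr11:108920349-108950783 on the plus strand of GRCm38). Saline livers ranged from 58.8 to 490 with a median of 209, and LNA29 livers from 75.5 to 675 with a median of 217, from 4 to 54 reads. The lowest value of the 12 was in a saline liver, replicate 53, and the highest in an LNA29 liver, replicate 44. Group means were 248 ± 146 and 265 ± 214 (SD, n = 6 each), with log2 fold change 0.01 (standard error, SE, 0.50, exact permutation p = 0.987). The 95% interval, -1.05 to 1.07, still allows a difference of about 1 log2 unit in either direction. Without replicates 49 and 48 the log2 difference was 0.55 (exact permutation p = 0.397).

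Nkd1 encodes an inhibitor that binds Dishevelled downstream of the receptors (Entrez gene 93960, chr8:88521354-88594884, plus strand). It had the smallest SD relative to its mean of the 9 targets in saline livers, with values between 333 and 453 and a median of 397. In the LNA29 group the range was 189 to 475 and the median 274, and 4 of 6 lay under the lowest saline liver while replicate 44 lay above the highest. Means were 397 ± 42.2 and 299 ± 109 (SD, n = 6 each), with log2 fold change -0.48 (SE 0.24, exact permutation p = 0.0693, limma adjusted p = 0.668). Without LNA29 replicate 44 the log2 difference was -0.62 (exact permutation p = 0.00433, limma adjusted p = 0.418). No other liver, left out alone, took the exact p under 0.05, and the unadjusted limma p was under 0.05 without LNA29 replicate 44 or 46.

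Rnf43 encodes a membrane ubiquitin ligase that removes Frizzled receptors from the cell surface (Entrez gene 207742, chr11:87662722-87735539, plus strand). Values were between 461 and 1172 with a median of 809 in saline livers and between 192 and 875 with a median of 564 in LNA29 livers. LNA29 replicates 48 and 54, with 321 and 192, were lower than every saline liver, and the other LNA29 livers lay within the saline range. Means were 821 ± 238 and 553 ± 265 (SD, n = 6 each), with log2 fold change -0.69 (SE 0.33, exact permutation p = 0.113, limma adjusted p = 0.631). The exact p was 0.0476 without saline replicate 53 and above 0.05 in each of the other fits that left out 1 liver, and without replicates 49 and 48 the log2 difference was -0.51 (exact permutation p = 0.317). Its unadjusted limma p was no longer under 0.05 without saline replicate 43, 45, 47, 49 or 51 or LNA29 replicate 46, 48, 52 or 54. The lower values of Rnf43 in LNA29 livers were thus not separated from the saline values by the exact test, and an effect of its seed match was not tested.

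Znrf3 encodes the paralogue of Rnf43 with the same action on Frizzled receptors (Entrez gene 407821, chr11:5276324-5444847, minus strand). Values were between 246 and 960 with a median of 309 in saline livers and between 226 and 512 with a median of 368 in LNA29 livers. The highest value came from saline replicate 49, and the next saline liver had 374. Means were 411 ± 273 and 371 ± 95.5 (SD, n = 6 each), with log2 fold change -0.01 (SE 0.31, exact permutation p = 0.991). With saline replicate 49 left out it was 0.27 (exact permutation p = 0.214), so that the sign for Znrf3 depended on single livers, and it was also positive after the shift to a common median (0.04) and after trimmed mean scaling (0.05).

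Lgr5 encodes a receptor for R-spondins, which protect Frizzled receptors from Rnf43 and Znrf3, and in liver it marks hepatocytes beside the central vein (Entrez gene 14160, chr10:115450311-115587780, minus strand). It had the fewest reads of the 9, from 2 to 17 with saline and from 0 to 7 with LNA29. Values were between 19.6 and 170 with a median of 61.6 in saline livers and between 1 and 171 with a median of 51.8 in LNA29 livers. LNA29 replicate 48 was the liver without a read, and at its depth 3 reads, the floor used here, would be a value of 56.6, within the range of the other livers. The log2 difference was -0.77 (SE 0.85, exact permutation p = 0.548) and 0.07 without that liver (exact permutation p = 0.898), so that a difference in Lgr5 was not detectable at this depth. The value also depended on what is added before the logarithm, -0.43 with 10 and -0.91 with 0.1, and it was -0.18 with array weights.

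Tbx3 encodes a T-box transcription factor that hepatocytes express under β-catenin control (Entrez gene 21386, chr5:119670669-119684724, plus strand). Values were between 404 and 1175 with a median of 834 in saline livers and between 245 and 1463 with a median of 895 in LNA29 livers. The LNA29 livers thus held the lowest value, in replicate 48, and the highest, in replicate 44. Means were 805 ± 302 and 842 ± 470 (SD, n = 6 each), while the log2 difference was -0.09 (SE 0.39, exact permutation p = 0.842), opposite in sign to the difference of the means. Without LNA29 replicate 48 it was 0.22 (exact permutation p = 0.615).

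Lect2 encodes a protein that hepatocytes secrete into blood (Entrez gene 16841, chr13:56542464-56548502, minus strand). Its values were between 1400 and 3053 with a median of 2451 in saline livers and between 1000 and 1755 with a median of 1457 in LNA29 livers, from 56 to 295 reads. All 6 LNA29 livers lay under the saline median and 3 of 6 under the lowest saline liver. The saline values formed a set of 3 between 2892 and 3053, in replicates 43, 47 and 53, and 3 between 1400 and 2010, which overlapped the LNA29 range. Means were 2308 ± 733 and 1434 ± 309 (SD, n = 6 each), with log2 fold change -0.65 (SE 0.21, 95% interval -1.10 to -0.20, exact permutation p = 0.0281). The limma adjusted p was 0.347, and it ranged from 0.0591 to 0.621 over the other settings, so that Lect2 did not pass a test corrected for all genes in any of them.

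The fold change of Lect2 was negative in every fit that left out 1 liver, between -0.78 and -0.55. The exact permutation p was 0.0563 without saline replicate 43, 47 or 53 and 0.0584 without LNA29 replicate 44 or 50. It was 0.0693 after the shift to a common median and 0.0541 after trimmed mean scaling of the values. Saline replicate 49, which stood apart in its length trend, had the lowest saline value of this short transcript, and without replicates 49 and 48 the log2 difference was -0.84 (exact permutation p = 0.0159, limma adjusted p = 0.0904). The Lect2 difference was thus larger without the livers that stood apart, and its side of the 0.05 threshold depended on single livers.

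Slc1a2 encodes the glutamate transporter Glt1, which in liver sits on the same pericentral hepatocytes as Glul (Entrez gene 20511, chr2:102658659-102790784, plus strand). Values were between 3323 and 4320 with a median of 3365 in saline livers and between 1830 and 4888 with a median of 4167 in LNA29 livers. Of the LNA29 livers, 3 lay above every saline liver and replicate 48 lay below every saline liver. Means were 3607 ± 422 and 3861 ± 1157 (SD, n = 6 each), with log2 fold change 0.03 (SE 0.20, 95% interval -0.39 to 0.46, exact permutation p = 0.900). Without replicates 49 and 48 it was 0.29 (exact permutation p = 0.0714, limma adjusted p = 0.463), where its unadjusted limma p was under 0.05 and the exact p was not.

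Rhbg encodes an ammonium transporter of the Rhesus family on pericentral hepatocytes (Entrez gene 58176, chr3:88242874-88254709, minus strand). Values were between 250 and 645 with a median of 472 in saline livers and between 56.6 and 509 with a median of 379 in LNA29 livers. The lowest value, from 3 reads, was again that of LNA29 replicate 48, and every other LNA29 liver lay within the saline range. Means were 469 ± 134 and 354 ± 160 (SD, n = 6 each), with log2 fold change -0.61 (SE 0.43, exact permutation p = 0.286) and -0.14 without LNA29 replicate 48 (exact permutation p = 0.571). With saline replicate 49 left out the value was -0.78 (exact permutation p = 0.0866), and without both it was -0.31 (exact permutation p = 0.0952). The size of the Rhbg difference therefore depended on these livers, and its sign did not.

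Levels of different genes were compared as values per kb of the longest annotated transcript. In saline livers the order was Lect2 (2758 ± 876), Slc1a2 (311 ± 36.4), Rhbg (242 ± 69.0), Rnf43 (191 ± 55.3), Tbx3 (162 ± 60.6), Nkd1 (97.3 ± 10.3), Znrf3 (65.2 ± 43.3), Axin2 (58.2 ± 34.3) and Lgr5 (16.5), with SD over n = 6 shown for all but Lgr5. The 3 functional genes of pericentral hepatocytes thus led with this length, and the R-spondin receptor Lgr5 came last. Lect2 was above Slc1a2, Slc1a2 above Rhbg and Axin2 above Lgr5 in all 12 livers. Tbx3 was above Nkd1 in 10 of 12 livers, and Rhbg above Rnf43 and Nkd1 above Znrf3 in 9 of 12. Rnf43 was above Tbx3 in 6 of 12 livers, 5 of them saline, and Znrf3 above Axin2 in 7 of 12, 3 of them saline. LNA29 livers had the same order except that Tbx3 came before Rnf43 and Axin2 before Znrf3. The order also depended on the annotation, since the median transcript length put Slc1a2 before Lect2 and Axin2 in place 5.

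**Figure D3:**
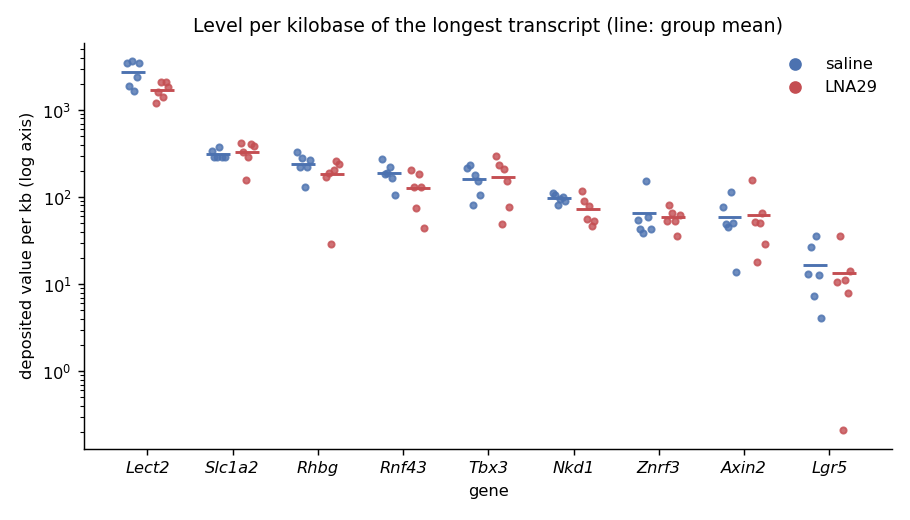
Deposited value per kb of the longest annotated transcript for each pericentral Wnt target gene on a log axis, with a point for each saline (blue) and LNA29 (red) liver and a line at the group mean, ordered by the saline mean. Lect2 lies above all others in every liver. The lowest Lgr5 point is LNA29 replicate 48, which had no read and is drawn at the listed value of 1 divided by transcript length.

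The mean log2 deviation of the 9 targets from their 12-liver means was -1.40 in LNA29 replicate 48 and between -0.35 and 0.55 in the other 11 livers. The lowest value of the 12 was in that liver for 4 of 9 targets, Lgr5, Tbx3, Slc1a2 and Rhbg. Lect2 and Znrf3 did not share this drop: Lect2 had 1755 there, the highest of the LNA29 livers together with replicate 52, and Znrf3 had 415, below only replicate 46 among them. On the same scale, replicate 48 was also the lowest of the 12 livers for endothelial markers (-0.40, others -0.22 to 0.33) and stellate cell markers (-0.75, others -0.33 to 0.60). It was the highest for bile duct markers (0.42, others -0.96 to 0.39) and within the range for Kupffer cell markers (-0.12, others -0.62 to 0.70). Their part in the low values of that liver was not tested.

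**Figure D4:**
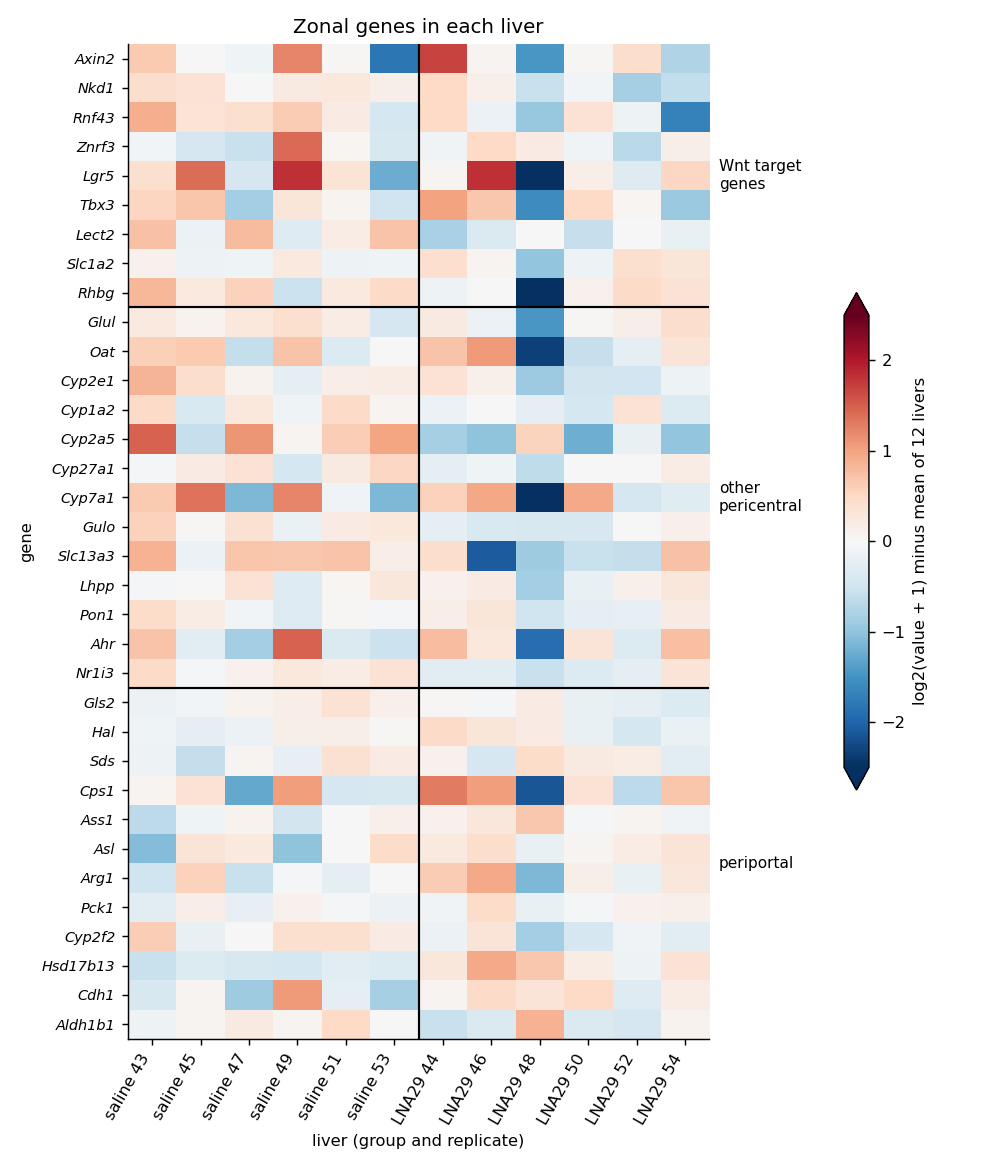
Deviation of log2(value + 1) from the mean of 12 livers for the 9 Wnt target genes, 13 of the 14 other pericentral and 12 periportal hepatocyte genes (rows), in each liver (columns, saline left and LNA29 right of the line). Red is higher and blue lower than the mean, the strongest deviations share the end colour, and the blue column in the upper blocks is LNA29 replicate 48.

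The 14 other pericentral hepatocyte genes had a median log2 fold change of -0.32, all 14 were negative, also after the shift to a common median, and 0 of 14 had a limma adjusted p under 0.05. An unadjusted limma p under 0.05 was found for 5 of 14, all lower in LNA29 livers, where 5.97% of all tested genes had one in that direction. Without replicates 49 and 48, 10 of 14 were negative, 6 of 14 had an unadjusted limma p under 0.05 in the lower direction (881 of all 12438 tested genes did), and Cyp2a5 had a limma adjusted p of 0.0224. Glul was not among the genes with a difference, with values from 20284 to 36020 with saline and from 9906 to 36671 with LNA29. Its log2 fold change, -0.26 (exact permutation p = 0.515), was 0.01 without LNA29 replicate 48. Cyp2e1, the most abundant of the list and an ethanol-metabolising P450, had -0.50 (exact permutation p = 0.0628), with an exact p of 0.0411 without saline replicate 49 and 0.0238 without LNA29 replicate 44.

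Among these genes, Cyp2a5, a coumarin hydroxylase gene, had -1.22 (exact permutation p = 0.0195), a value that is uncertain because it can share reads with the near-identical Cyp2a4. Its limma adjusted p was also under 0.05 without LNA29 replicate 48 alone (0.0468) and with array weights (0.0364). Nr1i3, which encodes the nuclear receptor CAR, had -0.45 (exact permutation p = 0.0152), and Gulo, of ascorbate synthesis, -0.43 (exact permutation p = 0.0173). Slc13a3, a dicarboxylate transporter gene, had -0.99 (exact permutation p = 0.0411), and its exact p was above 0.05 in 9 of 12 fits that left out 1 liver, the exceptions being those without saline replicate 45 and without LNA29 replicate 44 or 54. Without replicates 49 and 48 the exact p of Slc13a3 was 0.127. Lect2 thus shared its direction with all 14 other pericentral genes with all livers, and with 10 of 14 without replicates 49 and 48. Nkd1, Rnf43 and Rhbg were also negative in both fits. The limma 95% intervals of Axin2, Nkd1, Znrf3, Lgr5, Tbx3 and Rhbg included 0 with and without the livers that stood apart.

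Periportal hepatocyte genes went mostly the other way, with 9 of 12 positive and a median of 0.17. A limma adjusted p under 0.05 was found for 0 of 12. The unadjusted limma p was under 0.05 for 1 higher and 1 lower in LNA29 livers, where 7.91% of all tested genes had one in either direction. Without replicates 49 and 48, 4 of 12 were negative, with a median of 0.19. There, 4 had an unadjusted limma p under 0.05 in the higher and 1 in the lower direction (437 and 881 of all 12438 tested genes did). Hsd17b13, a lipid droplet enzyme gene, had values from 10594 to 12990 with saline and from 14245 to 30098 with LNA29, above every saline liver, with log2 fold change 0.79 (SE 0.16, exact permutation p = 0.00216, limma adjusted p = 0.0682). Its limma adjusted p was under 0.05 without LNA29 replicate 52, with array weights and with the length covariate. Cyp2f2, also periportal, had -0.48 (exact permutation p = 0.0368, and 0.127 without replicates 49 and 48). The exact p for Cyp2f2 was above 0.05 without saline replicate 43, 49 or 51 and without LNA29 replicate 44, 48, 50 or 54, at most 0.0758, and it was 0.0563 after trimmed mean scaling. Pck1, the most abundant gene of the list and the first committed enzyme of gluconeogenesis, had 0.13 (exact permutation p = 0.316). A zonal shift of hepatocyte expression was not tested.

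Of 21 Wnt ligands and R-spondins, 8 reached the mean of 10 needed for a test. Of these, 0 had an adjusted or an unadjusted limma p under 0.05, where 7.91% of all tested genes had an unadjusted one. Wnt5b, the ligand with the highest mean, had from 121 to 365 with saline and from 56.6 to 342 with LNA29 (log2 fold change 0.14, exact permutation p = 0.803). Neither gene of ligand secretion, Porcn and Wls, had an unadjusted limma p under 0.05, and Porcn, which attaches the lipid that Wnts need, had -0.48 (exact permutation p = 0.0628). The exact p of Porcn was 0.0152 without saline replicate 43 and 0.0411 without saline replicate 49 or LNA29 replicate 46. Most ligands were thus at or near the limit of detection in these whole livers.

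Among 10 tested receptors, 0 had a limma adjusted p under 0.05, where 0.16% of all tested genes did. An unadjusted one was found for 2 of 10, both higher in LNA29 livers, where 7.91% of all tested genes had one in either direction. The log2 fold change was negative for 7 of 10 receptors, with a median of -0.27. Ryk, a receptor tyrosine kinase-like coreceptor, had values from 516 to 810 with saline and from 813 to 1151 with LNA29, above every saline liver with the nearest pair only a few units apart (log2 fold change 0.37, exact permutation p = 0.00216, limma adjusted p = 0.594). Lrp6, the coreceptor of Frizzled, had values between 807 and 1600 and between 1019 and 1589, with log2 fold change 0.41 (exact permutation p = 0.0584), and 0.55 without saline replicate 49 (exact permutation p = 0.00649). The exact p of Lrp6 was also under 0.05 without LNA29 replicate 50 (0.0476) or 52 (0.0433) and without replicates 49 and 48 together (0.00794). With all livers it was 0.0173 after the shift to a common median and 0.0216 after trimmed mean scaling, so that the side of 0.05 on which Lrp6 lay depended on the scaling as well as on single livers. Lrp5, the receptor gene with the highest mean, had 0.04 (exact permutation p = 0.840).

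Of the 11 genes for β-catenin and its destruction complex, 0 had an adjusted or an unadjusted limma p under 0.05, and Gsk3a, with the highest mean, had 0.03 (exact permutation p = 0.803). Among 10 tested nuclear factors, 0 had a limma adjusted p under 0.05, where 0.16% of all tested genes did. An unadjusted one was found for 2 of 10, in opposite directions, where 7.91% of all tested genes had one. Ctnnbip1, whose product keeps β-catenin from TCF/LEF factors, had from 270 to 596 with saline and from 425 to 1019 with LNA29, with log2 fold change 0.84 (SE 0.24, exact permutation p = 0.00649, limma adjusted p = 0.237). With the length covariate its limma adjusted p was 0.0475, and in every other setting it was above 0.05. Tle2, a corepressor of TCF/LEF factors, had between 302 and 734 and between 196 and 340, with log2 fold change -0.90 (SE 0.25, exact permutation p = 0.00649, limma adjusted p = 0.213). Bcl9l, a β-catenin cofactor with the highest mean of this list, had -0.34 (exact permutation p = 0.110).

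Of 5 tested Wnt antagonists and 6 tested general Wnt targets outside the 9, 0 had an adjusted or an unadjusted limma p under 0.05. An unadjusted one was found for 7.91% of all tested genes. Notum, a hepatocyte-expressed Wnt target whose product inactivates Wnts, had values from 1429 to 1895 with saline and from 1377 to 2054 with LNA29 (log2 fold change 0.12, exact permutation p = 0.305). Kremen1, the antagonist gene with the highest mean, had -0.23 (exact permutation p = 0.390). Like Axin2, these readouts gave no difference beyond the spread between livers.

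Markers of other liver cells were compared because Wnt ligands and some pathway genes come from them. No endothelial marker (of 8) and no bile duct marker (of 6) had an adjusted or an unadjusted limma p under 0.05, and the most abundant endothelial marker, Clec4g, had -0.26 (exact permutation p = 0.123). Of 7 stellate cell markers, Ngfr (-0.78, exact permutation p = 0.0195) was lower in LNA29 livers at an unadjusted limma p under 0.05, as was Hgf, for which no fold is given because it had at most 3 reads in any liver, while Dcn, the most abundant, had 0.08 (exact permutation p = 0.792). Of 6 Kupffer cell markers, Marco was higher (1.08, exact permutation p = 0.0368, but 0.0541 to 0.0671 without saline replicate 43, 49 or 53 or LNA29 replicate 54 and 0.103 without replicates 49 and 48) and Clec4f, the most abundant, had -0.19 (exact permutation p = 0.413). Of 2 measured red blood cell markers, neither had an unadjusted limma p under 0.05, and Hbb-b1, which can share reads with its near-identical copy, had 0.47 (exact permutation p = 0.429). None of these markers had a limma adjusted p under 0.05, and their part in the values of the Wnt targets was not tested. Of all tested genes, 7.91% had an unadjusted limma p under 0.05.

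The genes most like each target were found by the root mean square difference between log2 values of the 12 livers after each gene was centred, among 8712 genes with a mean of at least 100 in both groups. This was done for the 6 targets with at least 10 reads in every liver. Slc1a2 was closest to Prep (0.16), Slc35e1 (0.17) and Sumo2 (0.18), against a median difference of 0.52 over all candidates. Znrf3 was closest to Pan3 (0.20), Srsf6 (0.30) and Tmem56 (0.30).

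Lect2 was closest to Tenc1 (0.23), against a median of 0.63. A lower mean of Tenc1 in LNA29 livers, 2961 against 4200, follows from the way it was picked and is not a separate observation. Nkd1 was closest to Mrpl16 (0.23), Mpi (0.24) and Acsf2 (0.24), Rnf43 to Tmem25 (0.37), Foxa2 (0.39) and Mark4 (0.39), and Tbx3 to Cox11 (0.30), Ttc27 (0.33) and Pik3r1 (0.36). No other Wnt target and no gene of the pathway lists was among the 3 genes closest to any of these 6.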

How the data were processed

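The authors sequenced poly(A)+ RNA (TruSeq, single reads, Illumina HiSeq), aligned it with MapSplice2 to mm9 and estimated reads per gene with RSEM; versions and annotation are not given in the sources used here. The signal values used here are as deposited by the authors: RSEM reads divided by a liver's upper quartile over genes with reads, times 1000, with 1 for a gene without reads. The authors' comparison columns (group means, fold change and p) were left aside, as were 2 columns of values that carry no name.

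From these values, limma 3.58.1 (R 4.3.3, with trend) compared log2(value + 1) between LNA29 and saline livers in the 12486 of 21705 genes whose mean reached 10, and p was adjusted over these by the Benjamini-Hochberg procedure (threshold 0.05). Single genes also had an exact two-sided permutation p over 924 divisions of the livers, the smallest possible being 0.00216. The steps were tested on simulated data with known differences before use. The worth of 1 read was the commonest value above 1 in each liver, and 3 reads were taken as the floor. Fits with other scalings, filters, weights and without single livers were also made, and the pair left out together was chosen after the data were seen.

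From each list, genes with an unadjusted limma p under 0.05, the gene with the highest mean and Glul were named. Likeness was the root mean square difference of centred log2 values. Some genes that these rules select are not reported. Transcript lengths came from GENCODE M21 (GRCm38), matched for 21423 genes, and sequences from RefSeq GRCm38.p6. Tables used Python 3.11.15, numpy 2.4.6, pandas 2.3.3 and matplotlib 3.10.9. The members and the lists were chosen with earlier results of these data known.

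Limits: with 6 livers per group and few reads for Lgr5, Axin2 and Rhbg, differences of the size seen between livers could be missed. Whole tissue does not separate cell number from RNA per cell, protein was not measured, and the saline control does not separate miR-29 inhibition from other effects of an LNA. Reads could not be recovered as whole numbers for all livers, so that no count-based test was made. Genes with near-identical copies share reads.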

Additional observations from a re-analysis of the deposited data

Results flagged for a closer look

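In each group of 6 livers, a liver was marked as apart when the gap to its neighbour took up most of the range (Dixon's ratio) on the log2(value + 1) scale. Of 120 groups looked at, 14 had such a liver. Chance would mark about 1 in 20, or 6 groups, if values were normally distributed and the groups independent. The groups reuse the same livers, so that an excess over chance was not tested. For the 9 Wnt targets a liver was marked in 3 of 18 groups. The cause was not tested for any of them.

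Among the targets, Znrf3 had 9.91 in saline replicate 49 (others 7.95 to 8.55). LNA29 replicate 48 had 1.0 for Lgr5 (others 5.28 to 7.42) and 5.85 for Rhbg (others 8.39 and above), from 0 and 3 reads.

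The same liver had 5.85 for Wnt5b (others 7.82 to 8.42), 10.17 for Ryk (others 9.67 to 9.74), 13.27 for Glul (others 14.59 to 15.16) and a mean deviation of -0.94 for the other pericentral genes (others -0.26 to 0.11). Saline replicate 49 had 10.64 for Lrp6 (others 9.66 to 9.87), 24.80 for Alb (others 26.03 to 26.56) and an albumin share of 35.7% of reads (others 43.6% to 46.9%).

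Nr1i3 had 12.91 in LNA29 replicate 54 (others 12.03 to 12.35), and Hgf had 3.75 in LNA29 replicate 44, where all others had no read. The mean deviation of the other general Wnt targets was -0.83 in LNA29 replicate 52 (others -0.17 to 0.19), and that of the other pericentral genes was 0.54 in saline replicate 43 (others 0.08 to 0.23).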

How the results depend on the processing

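In every alternative 0 of the targets tested had a limma adjusted p under 0.05, where 0.00801% to 0.929% of all tested genes did. In every one tried for it, 0 had groups that did not overlap. All 9 targets were tested except with a mean of at least 100, where Lgr5 was filtered out. The number with an unadjusted limma p under 0.05 was 1 with a pseudocount of 0.1, a mean of at least 100, a common median, trimmed mean scaling or array weights. In these settings 7.86%, 8.99%, 7.12%, 7.21% and 10.8% of all tested genes had one. When single livers were left out, the number was 1 to 3 targets, against 6.46% to 9.17% of all tested genes. Planned count-based tests were not made because whole reads could not be recovered for all livers. The alternative without saline replicate 49 and LNA29 replicate 48 together was chosen after seeing the data. Livers have no shared replicate numbers, so no paired comparison was made.

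Log2 fold changes with single livers left out ranged from -0.35 to 0.30 for Axin2, -0.62 to -0.36 for Nkd1, -0.86 to -0.42 for Rnf43, -0.12 to 0.27 for Znrf3, -1.21 to 0.0705 for Lgr5, -0.30 to 0.22 for Tbx3, -0.78 to -0.55 for Lect2, -0.0480 to 0.24 for Slc1a2 and -0.78 to -0.14 for Rhbg. Genes outside the 9 whose sign changed ranged from -0.00616 to 0.53 (Wnt5b), -0.0600 to 0.14 (Lrp5), -0.0116 to 0.0902 (Gsk3a), -0.37 to 0.00861 (Glul), -0.0493 to 0.30 (Alb), -0.0655 to 0.30 (Dcn) and -0.15 to 0.0126 (Hnf4a).

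Without replicates 49 and 48 the values were 0.55 for Axin2, 0.23 for Znrf3, 0.36 for Lgr5, 0.27 for Tbx3, -0.84 for Lect2, 0.29 for Slc1a2, -0.31 for Rhbg, 0.19 for Lrp5, -0.0250 for Gsk3a, 0.0640 for Glul, 0.40 for Dcn and -0.0358 for Alb.

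Znrf3 changed sign with a common median (0.0393), trimmed mean scaling (0.0519), array weights (0.0685) and the length covariate (0.0637), and Tbx3 with array weights (0.0713). Rnf43 had -0.65 with the length covariate. Lect2 had -0.60 with a common median and -0.59 with trimmed mean scaling, where its exact permutation p was above 0.05. Gsk3a had -0.0429 with array weights and Hnf4a 0.00406 with trimmed mean scaling.

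With the median transcript length the order per kb was Slc1a2 (place 1), Lect2 (2), Rnf43 (3), Rhbg (4), Axin2 (5), Tbx3 (6), Nkd1 (7) and Znrf3 (8), with only Lgr5 unmoved. The cause of these changes was not tested.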
